A study of Saccharomyces cerevisiae with 27 samples.

Results

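The mitochondrial ribosome of budding yeast was followed through 60 nuclear genes that encode its proteins, 34 of the large subunit and 26 of the small subunit. Members were taken by ORF identifier from the 6692 genes measured, a rule that uses no measured value, although the group was taken up with earlier results of these data known. All 60 were present in the data and passed the filter on low values in every comparison. They came from a study of how conditioned medium acts on yeast cells. BY4741, a MATa laboratory strain carrying his3Δ1, leu2Δ0, met15Δ0 and ura3Δ0, was grown in synthetic complete medium with 2% glucose, the non-restricted (NR) condition, in every group. At inoculation the NR cultures received 2% by volume of CRCM, which is 10-fold concentrated conditioned medium from calorie-restricted cultures grown in 0.5% glucose, or of NRCM, the same preparation from NR cultures, or water. Cells were collected in log phase, at 24 h and at 96 h, with 3 biological replicates in each of the 9 groups and 27 libraries in all. The strain has 1 genetic background, and conditioned medium is a mixture, so each result concerns cultures labelled BY4741 and the whole concentrate. 1 library, CRCM 96 h replicate 3, held reads of genes that this strain lacks, as given below.

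The mitochondrial ribosome translates the few mRNAs of the mitochondrial genome, nearly all of which encode core subunits of the respiratory chain and ATP synthase. Its rRNAs and the small subunit protein VAR1 are made inside the organelle, whereas every other ribosomal protein is encoded in the nucleus, translated in the cytosol and imported. The large subunit joins amino acids and the small subunit reads the mRNA. In yeast the RNA-binding protein Puf3 binds an element in the 3′ UTR of many of these nuclear transcripts and is known to act on their decay and translation according to the carbon source.

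That element was looked for first, and of the 4 sets of letters searched it was the one most members held. In the 200 bases that follow the stop codon, the Puf3 recognition letters TGTANATA were found on the sense strand of 59 of 60 members (98.3%), against 843 of all 5986 nuclear coding genes searched (14.1%). The first match is printed here for a selection of members treated below. RSM19, MRPS8 and MRPL50 rose most with CRCM against water at 24 h. MRPS8, MRPL49 and MRPL35 had the largest change of that effect between 24 h and 96 h. MRPL32 and MRPL1 fell most with CRCM against water at 96 h. MRPL4 and RSM7 missed the threshold at 24 h, and MRPL44 was not called between 24 h and 96 h in CRCM cultures. MRPL25, MRPL32 and MRP51 were to be named whatever their values. Other members with changes of similar size were not all printed. Each match is given 5′ to 3′ with up to 11 bases on each side, in DNA letters, with the matching bases in capitals. Coordinates are those of the R64 genome in RefSeq, the sequence of the sacCer3 build to which the reads were mapped. RSM22, the only member without a match, has no line.
RSM19, chrXIV:695024-695051, minus strand: gggatctagTGTATATAgatttctagat
MRPS8, chrXIII:572761-572790, plus strand: tatacggaccaTGTAAATAataatattata
MRPL50, chrXIV:669719-669748, minus strand: gcgtacaatctTGTATATAggcaacatcgc
MRPL35, chrIV:1111710-1111739, plus strand: ttatagtatccTGTACATAtaaaataacgt
MRPL49, chrX:246977-247006, plus strand: ttttagggataTGTACATAtacgcatacgt
MRPL44, chrXIII:720854-720883, minus strand: acaagcaagccTGTAAATAatatatatgca
MRPL25, chrVII:637008-637037, minus strand: atgtctaatcaTGTAAATAattttgtgata
MRPL32, chrIII:119206-119235, plus strand: aaacttaagccTGTATATAgaaacttaatt
MRP51, chrXVI:327697-327726, plus strand: attcagagttcTGTAAATAaataaagaaaa
MRPL1, chrIV:682668-682697, minus strand: acttttttaatTGTATATAtatatatactg
MRPL4, chrXII:1015467-1015496, plus strand: accctctctccTGTAAATAtatatatatat
RSM7, chrX:638192-638221, minus strand: gtaaacttgccTGTACATAaacacatttat

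The matches lay close to the coding region. The first one began 8 to 139 bases after the stop codon, with a median of 51.0 bases, and it began within 100 bases in 55 of the 59 members (93.2%), against 581 of 784 other nuclear genes with a match (74.1%). The open position held A in 29 members, T in 17, C in 12 and G in 1, whereas T was the commonest letter in the other genes (50.5%). A C stood 2 bases before the match, a position at which Puf3 is known to favour C, in 41 of 59 members (69.5%), against 202 of 784 other genes (25.8%). All 34 large subunit genes and 25 of 26 small subunit genes held the letters. These are matches of letters, not measured binding, and mRNA ends were not mapped here.

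Reads recovered for a member had a median of 681 and reached 26131 per library, so counting error was small for a typical member. Recovered library totals ran from 7398971 to 114303707 reads, the deepest being CRCM 24 h replicate 3. Levels are in CPM (reads of a gene scaled to a fixed library total). LEU2 and URA3, which BY4741 lacks, stood at 58.1 and 9.98 CPM in CRCM 96 h replicate 3, against 0.20 CPM or less for each in the other 26 libraries. MET15 was at 0.00 CPM in all 27. The 8 mitochondrial genome transcripts measured summed to 4593 CPM in that library, against 103 and 132 CPM in the other CRCM 96 h libraries. Whether that library was mixed or mislabelled was not tested. It was kept in the main fits. Counts without it are given for the comparisons of supplements at 96 h, for CRCM cultures at 96 h against 24 h and for the change of the CRCM effect.

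Levels below are CPM scaled with TMM factors over the 27 libraries. The CRCM cultures at 24 h stood apart. The 60 transcripts summed to 5565, 5714 and 5674 CPM in CRCM cultures at 24 h, against 2931, 4065 and 4110 CPM in NRCM cultures and 3183, 3355 and 3001 CPM in water cultures at that time. No library of any other group reached these values, the next highest being NRCM 24 h replicate 3. In log phase the sums were 3114 to 3432 CPM with CRCM, 2990 to 3338 CPM with NRCM and 2786 to 4069 CPM with water. At 96 h they were 2855 to 3365 CPM with CRCM, 3241 to 3303 CPM with NRCM and 2931 to 3051 CPM with water. The rise in CRCM cultures was thus a feature of the 24 h samples.

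**Figure D1:**
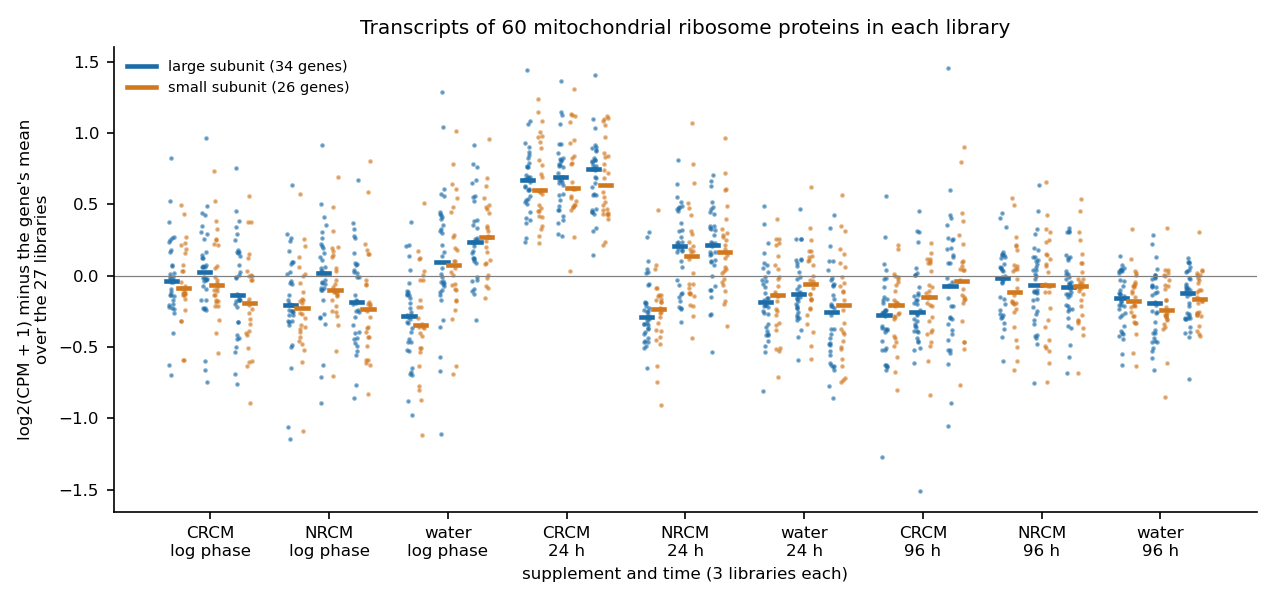
Level of each of the 60 transcripts in each of the 27 libraries (dots), as log2(CPM + 1) minus the gene's own mean over all libraries, with bars at the median of each subunit. The medians of the CRCM libraries at 24 h lie above all others in both subunits, and NRCM 24 h replicate 1 lies below the other NRCM 24 h libraries.

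Both subunits had higher levels in CRCM cultures at 24 h. The mean level per kb of coding length over the large subunit genes was 155.5, 159.7 and 159.3 CPM per kb in CRCM cultures at 24 h, against 84.2, 87.6 and 79.0 CPM per kb in water cultures. For the small subunit genes it was 148.8, 153.6 and 149.4 CPM per kb in CRCM cultures, against 85.3, 89.7 and 81.2 CPM per kb in water cultures. The ratio of the large to the small subunit mean ranged from 0.956 to 1.072 over all 27 libraries, and the ratio of their medians more widely, from 0.833 to 1.268. At 24 h the ratio of means was 1.040 to 1.066 with CRCM, 1.007 to 1.041 with NRCM and 0.973 to 0.987 with water, and the ratio of medians was 0.967 to 1.035 with CRCM, 1.018 to 1.268 with NRCM and 0.833 to 0.954 with water. The CRCM and water libraries did not overlap by either ratio, whereas the order of CRCM and NRCM depended on which was used. No test was made of these ratios, since members are not replicates.

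Per kb of coding length, averaged over the 27 libraries, the highest members were MRPL39 (YML009C), MRPL33 (YMR286W) and MRPL51 (YPR100W), at 222.4, 212.9 and 186.0 CPM per kb. The lowest were RSM22 (YKL155C), MRP13 (YGR084C) and MRPS5 (YBR251W), at 22.4, 42.6 and 44.2 CPM per kb. RSM22 encodes a protein of the methyltransferase fold with a role in small subunit assembly rather than a standard structural protein, while MRP13 is a protein particular to the mitochondrial small subunit and MRPS5 belongs to a family shared with bacteria. The other 54 members lay between 44.5 and 169.9 CPM per kb, and neighbours in the order were not tested.

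At 24 h, does CRCM act on these transcripts relative to water? Of 60 members, 58 rose in CRCM cultures and 0 fell, 33 of 34 in the large subunit and 25 of 26 in the small subunit (limma on log2(CPM + 1), Benjamini-Hochberg adjusted p under 0.05 over 6577 genes). Over all genes tested 26.7% rose and 24.7% fell. The median log2 fold change was 0.89 in the large subunit and 0.78 in the small subunit, against 0.01 over all genes, and the middle 50% of members lay between 0.56 and 0.99. In all 60 members every CRCM library was above every water library, which held for 37.3% of all genes. edgeR gave 58 members higher and DESeq2 57, and their counts of members lower were also 0, as was the count at an unadjusted p under 0.05.

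The largest rises were those of RSM19, MRPS8 and MRPL50. RSM19 (YNR037C), a counterpart of bacterial S19 in the head of the small subunit, had 76.0, 78.4 and 76.2 CPM in CRCM cultures, against 26.9, 30.0 and 22.5 CPM in water cultures. The groups lay far apart, and the log2 fold change was 1.49 ± 0.13 (SE, adjusted p = 2.45e-05). MRPS8 (YMR158W), a core small subunit protein shared with bacteria, had 71.5, 75.04 and 65.0 CPM with CRCM, against 24.4, 26.5 and 23.4 CPM with water (log2 fold change 1.45 ± 0.16, adjusted p = 0.000105). MRPL50 (YNR022C), of the bacterial L9 family, had 136.7, 129.7 and 133.2 CPM with CRCM, against 50.7, 49.0 and 45.3 CPM with water (log2 fold change 1.42 ± 0.12, adjusted p = 2.7e-05). In none of these 3 genes did the groups come near to overlapping.

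Next in size were RSM25 (YIL093C, log2 fold change 1.38 ± 0.18), MRPL35 (YDR322W, 1.33 ± 0.22), RSM27 (YGR215W, 1.32 ± 0.09), MRPL27 (YBR282W, 1.27 ± 0.11) and MRPL49 (YJL096W, 1.24 ± 0.15). MRPL49 is related to bacterial L21, and the other 4 are proteins found in mitochondrial but not bacterial ribosomes. RSM25 had 93.9, 92.3 and 91.2 CPM with CRCM, against 37.9, 38.4 and 27.7 CPM with water. MRPL35 had 153.5, 160.2 and 157.4 CPM with CRCM, against 60.7, 66.3 and 55.9 CPM with water.

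The smallest change was that of MRPL32 (YCR003W), a zinc-binding protein whose processing by the m-AAA protease is needed for ribosome assembly. It had 29.0, 30.1 and 27.2 CPM with CRCM, against 23.8, 24.3 and 23.4 CPM with water (log2 fold change 0.24 ± 0.08, adjusted p = 0.0291). The groups did not overlap, yet the call was lost with DESeq2, in 1 fit of all 27 libraries, and without CRCM replicate 1 or 2 or any 1 of the water replicates (0.20 to 0.25). MRPL25 (YGR076C, also named AFO1), a large subunit protein whose loss is known to lengthen replicative life span, had 40.5, 40.5 and 38.9 CPM with CRCM, against 27.9, 29.5 and 33.5 CPM with water (log2 fold change 0.37 ± 0.11, adjusted p = 0.0163). That call was lost in the fit of all 27 libraries and without CRCM replicate 2 or water replicate 1 or 2 (0.31 to 0.36). MRP51 (YPL118W), which acts with mitochondrial mRNA 5′ leaders in the small subunit, had 116.4, 120.1 and 114.3 CPM with CRCM, against 78.2, 79.9 and 78.4 CPM with water (log2 fold change 0.54 ± 0.09, adjusted p = 0.00101).

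Only MRPL4 (YLR439W) and RSM7 (YJR113C) missed the threshold. MRPL4, related to bacterial L29 near the exit tunnel, had 81.5, 84.6 and 99.1 CPM with CRCM, against 75.3, 74.2 and 55.1 CPM with water (log2 fold change 0.36 ± 0.16, adjusted p = 0.0891). RSM7, the counterpart of bacterial S7, had 196.0, 198.4 and 208.5 CPM with CRCM, against 150.7, 176.1 and 142.4 CPM with water (log2 fold change 0.34 ± 0.15, adjusted p = 0.0834). In both genes all CRCM values were above all water values. Each SE exceeded that of MRPL32 (0.08), which passed with a smaller change. The SE draws on all libraries in the fit, NRCM cultures included.

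**Figure D2:**
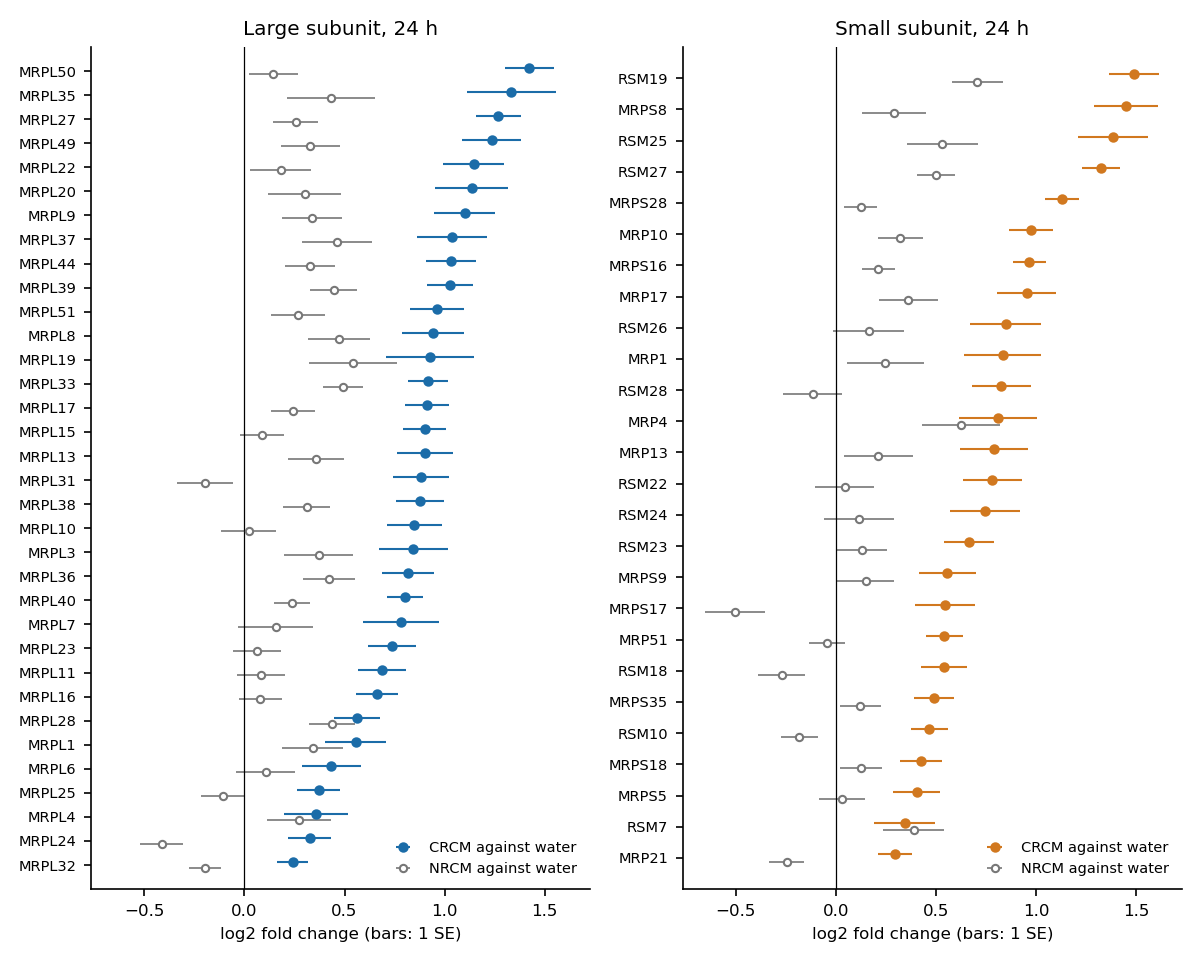
Log2 fold change at 24 h of each member, CRCM against water (filled) and NRCM against water (open), with bars of 1 SE, large subunit at left and small subunit at right. Every filled point lies right of 0, from 0.24 for MRPL32 to 1.49 for RSM19, and most open points lie nearer to 0 than the filled point of the same gene.

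Without TMM scaling all genes had a median of 0.42 in this comparison and all 60 members rose, while the calls over all genes became 3777 higher and 656 lower in place of 1758 and 1624. Leaving out 1 library at a time gave 52 to 60 members higher.

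CRCM was next set against NRCM, which controls for medium in which cells have grown. Of 60 members, 52 rose in CRCM cultures and 0 fell, 28 of 34 and 24 of 26 by subunit, against 21.9% of all genes higher and 20% lower. The median log2 fold changes were 0.59 in the large and 0.64 in the small subunit, and every CRCM library was above every NRCM library in 54 members, against 30.1% of all genes. edgeR called 51 and DESeq2 52 members higher, with 0 lower in either and 0 at an unadjusted p under 0.05. Same-numbered libraries of these groups varied together, and with the replicate number as a block 54 members rose. Without TMM scaling 59 rose, beside 3450 genes higher and 544 lower in place of 1443 and 1313, with a median of 0.34 over all genes.

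MRPL50 had 136.7, 129.7 and 133.2 CPM with CRCM, against 43.3, 56.3 and 62.5 CPM with NRCM, and led this comparison (log2 fold change 1.28 ± 0.12, adjusted p = 9.02e-05). MRPS8 had 71.5, 75.04 and 65.0 CPM with CRCM, against 22.6, 33.98 and 36.7 CPM with NRCM (1.16 ± 0.16, adjusted p = 0.000474). MRPL31 (YKL138C), a large subunit protein particular to mitochondria, had 104.8, 115.1 and 103.0 CPM with CRCM, against 41.0, 49.2 and 60.8 CPM with NRCM (1.08 ± 0.14, adjusted p = 0.000384). The 8 members not called were MRPL1, MRPL3, MRPL4, MRPL6, MRPL19, MRPL28, MRP4 and RSM7, with log2 fold changes of -0.05 for RSM7 up to 0.47 ± 0.17 for MRPL3 (adjusted p = 0.0505). RSM7 was the only member with a value under 0.

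NRCM against water at 24 h gave 5 members higher and 1 lower, near the background of 6.69% of all genes higher and 6.42% lower. RSM19 rose most, with 37.3, 49.6 and 44.7 CPM in NRCM cultures, against 26.9, 30.0 and 22.5 CPM in water cultures (log2 fold change 0.71 ± 0.13, adjusted p = 0.00984). RSM27, a small subunit protein particular to mitochondria (0.50 ± 0.09, adjusted p = 0.0122), MRPL33, of the bacterial L30 family (0.49 ± 0.10, adjusted p = 0.0159), MRPL39 and MRPL28 rose as well. MRPL24 (YMR193W), related to bacterial L28, had 36.3, 39.2 and 48.4 CPM with NRCM, against 55.5, 51.6 and 58.1 CPM with water, and fell by 0.41 on the log2 scale (SE 0.11, adjusted p = 0.0354). The calls of RSM27, MRPL24 and MRPL33 were lost with only the 6 libraries compared, and each was lost without water replicate 1 (0.51, -0.41 and 0.53).

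1 library moved this count most. NRCM 24 h replicate 1 had a summed level of 2931 CPM, against 4065 and 4110 CPM in the other NRCM cultures. This library differed outside the members too. Its cytosolic ribosomal proteins summed to 29053 CPM, against 14107 and 14333 CPM in the other NRCM cultures. Its nuclear respiratory chain subunits summed to 39295 CPM, against 53148 and 55807 CPM. Without this library 44 members rose and 2 fell, but the share of all genes called in that refit is not given here. The medians were then 0.44 in the large and 0.32 in the small subunit, against 0.27 and 0.14 with it, while CRCM against NRCM still gave 50 members higher. Leaving out any other library of this time gave 1 to 6 members higher, the fewest without water replicate 1. The rise with CRCM above water and above NRCM was found with and without NRCM replicate 1, while the count for NRCM against water rests on it. Without TMM scaling 8 members rose and 1 fell, and the calls over all genes were 584 higher and 292 lower in place of 440 and 422.

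Genes that work with the mitochondrial ribosome were read in the same fit, from lists chosen by function. All 13 other proteins of the mitochondrial ribosome that are not members rose in CRCM cultures against water at 24 h, with a median log2 fold change of 0.89. Of 10 ribosome assembly factors 8 rose (median 0.69), as did 9 of 12 translation factors, with 1 lower (median 0.62), and 8 of 12 translational activators of single mitochondrial mRNAs (median 0.53). Of 14 mitochondrial aminoacyl-tRNA synthetases 6 rose and 3 fell (median 0.28). By contrast 9 of 33 nuclear respiratory chain subunits rose (27.3%, close to the background of 26.7%), with a median of 0.23. Of 137 cytosolic ribosomal proteins 1 rose and 19 fell, with a median of -0.61. Both counts are smaller shares than those of all genes, 26.7% higher and 24.7% lower. Against NRCM, 8 of the 13 other mitochondrial ribosome proteins rose and 0 fell (median 0.59), and 5 of the 33 respiratory chain subunits rose and 1 fell (median 0.06). The differences between lists were not tested.

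**Figure D3:**
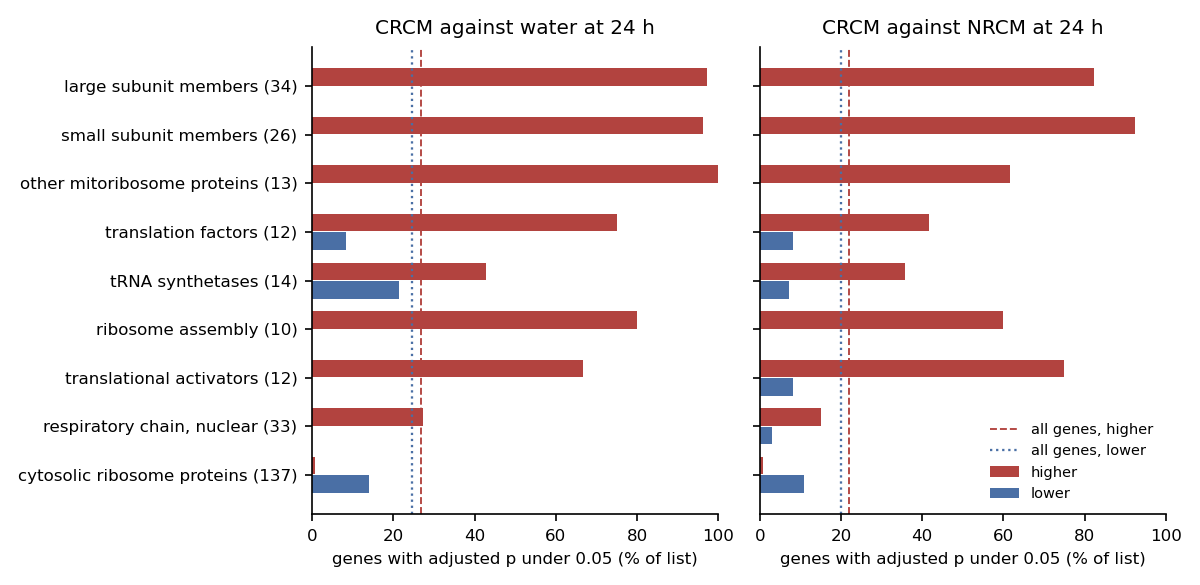
Share of each list with an adjusted p under 0.05 at 24 h, higher (red) and lower (blue), for CRCM against water at left and CRCM against NRCM at right, with dashed and dotted lines at the shares of all genes. Both subunits and the other mitochondrial ribosome proteins lie far right of the lines at left, while the respiratory chain lies near its line.

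In log phase no member passed the test between supplements. CRCM against water, NRCM against water and CRCM against NRCM each gave 0 members higher and 0 lower with limma, edgeR and DESeq2. At an unadjusted p under 0.05 the counts were 0 higher and 1 lower, 0 higher and 2 lower, and 0 higher and 0 lower. Over the 6483 genes tested limma called 0 higher in each of these comparisons (0% of genes), and 0 (0%), 1 (0.0154%) and 0 (0%) lower. The water libraries were spread more widely than the others at this time. MRPL50, for example, had 52.4, 59.7 and 35.0 CPM with CRCM, 50.5, 53.9 and 42.0 CPM with NRCM, and 40.6, 67.6 and 53.1 CPM with water. A count of 0 does not show that the supplements acted alike. Without TMM scaling the median of all genes was -0.14 for NRCM against water.

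Growth phase was compared within each supplement in 1 fit of the 27 libraries (6658 genes). In water cultures 7 members rose and 21 fell at 24 h against log phase, where 37% of all genes rose and 39.3% fell, and the medians were -0.21 in the large and -0.18 in the small subunit. RSM7 rose most, with 150.7, 176.1 and 142.4 CPM at 24 h, against 52.3, 70.5 and 102.3 CPM in log phase (log2 fold change 1.097 ± 0.18, adjusted p = 7.09e-06). MRPL28, a large subunit protein particular to mitochondria, had 39.7, 38.3 and 35.0 CPM at 24 h, against 18.8, 22.0 and 32.3 CPM in log phase (0.64 ± 0.15, adjusted p = 0.000405), and MRPL24 rose by 0.82 ± 0.32 (adjusted p = 0.0235). MRP13 had 24.6, 33.7 and 24.6 CPM at 24 h, against 44.4, 63.0 and 80.6 CPM in log phase, and fell by 1.13 on the log2 scale (SE 0.19, adjusted p = 1.03e-05). MRPL20, particular to the mitochondrial large subunit, fell by 1.06 (adjusted p = 4.36e-05), and RSM26, a small subunit protein of the superoxide dismutase fold, fell by 1.04 (adjusted p = 1.41e-06). In the same comparison all 33 nuclear respiratory chain subunits rose, with a median of 3.05, and all 137 cytosolic ribosomal proteins fell, with a median of -3.38, so the members followed neither list. Without log-phase replicate 1 the members higher were 3 and the members lower 30, without 24 h replicate 1 or 3 the members higher were 4, and the call of MRPL24 was lost without log-phase replicate 1 or 2 or 24 h replicate 3. Without TMM scaling 3 rose and 27 fell, with a median of -0.16 over all genes.

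In CRCM cultures the same step gave 47 members higher and 1 lower (26 higher and 1 lower in the large subunit, 21 higher in the small), where 39.6% of all genes rose and 36.5% fell. The medians were 0.81 and 0.75. RSM28, a small subunit protein particular to mitochondria, had 152.8, 166.9 and 165.5 CPM at 24 h, against 60.6, 65.3 and 40.4 CPM in log phase (log2 fold change 1.56 ± 0.18, adjusted p = 1.97e-08). MRPL50 rose by 1.46 ± 0.17 (adjusted p = 2.89e-08) and RSM24 by 1.39 ± 0.15 (adjusted p = 6.31e-09). MRPL32 was the exception, with 29.0, 30.1 and 27.2 CPM at 24 h, against 44.1, 48.7 and 33.9 CPM in log phase, and fell by 0.52 (SE 0.20, adjusted p = 0.0223). This fall was not called without log-phase replicate 1 or 2, nor without TMM scaling. There 57 members rose and 0 fell, beside 3375 genes higher and 1868 lower in place of 2635 and 2428, with a median of 0.39 over all genes.

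In NRCM cultures 19 members rose and 6 fell at 24 h against log phase, against 38.8% and 39.6% of all genes, with medians of 0.15 in either subunit. RSM7 had 157.9, 241.3 and 223.9 CPM at 24 h, against 86.5, 79.1 and 74.6 CPM in log phase (1.34 ± 0.18, adjusted p = 3.32e-07). MRPL4 (1.34 ± 0.22, adjusted p = 6.03e-06) and MRPL28 (1.23 ± 0.15, adjusted p = 4.71e-08) rose next, and MRP13 (-0.87 ± 0.19), MRPL32 (-0.75 ± 0.20) and RSM26 (-0.57 ± 0.15) fell most. RSM7 thus rose at 24 h in all 3 supplements, by 1.30 ± 0.18 in CRCM cultures. Without NRCM 24 h replicate 1 the members lower were 3.

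Between 24 h and 96 h the rise in CRCM cultures was lost. In these cultures 0 members rose and 55 fell at 96 h against 24 h, 30 of 34 and 25 of 26 by subunit, against 22.5% of all genes higher and 24.7% lower. The medians were -0.92 and -0.79. edgeR and DESeq2 each gave 54 lower and 0 higher, with 0 higher at an unadjusted p under 0.05. MRPS8 had 16.7, 16.2 and 17.1 CPM at 96 h, against 71.5, 75.04 and 65.0 CPM at 24 h, and fell by 2.02 on the log2 scale (SE 0.15, adjusted p = 2.08e-10). MRPL49 had 29.3, 31.7 and 24.3 CPM at 96 h, against 98.7, 102.8 and 95.1 CPM at 24 h, and fell by 1.77 (SE 0.19, adjusted p = 1.32e-07). MRPL50 fell by 1.605 (SE 0.17, adjusted p = 8.28e-08).

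The 5 members not called in that step were MRPL44, RSM22, MRPL24, MRPL11 and MRPL4. MRPL44 (YMR225C), particular to mitochondria, had 51.5, 47.8 and 52.9 CPM at 96 h, against 49.5, 48.0 and 47.5 CPM at 24 h (0.07 ± 0.15, adjusted p = 0.745). RSM22 had 46.5, 44.1 and 55.5 CPM at 96 h, against 51.3, 41.6 and 47.3 CPM at 24 h (0.06 ± 0.15, adjusted p = 0.773). Values of both genes overlapped between the times. MRPL24 had 40.7, 40.6 and 119.7 CPM at 96 h, the last in CRCM replicate 3, against 70.9, 71.6 and 68.1 CPM at 24 h (-0.26 ± 0.32). Without that replicate 56 members fell. Without TMM scaling 47 fell, beside 1967 genes higher and 1211 lower in place of 1497 and 1646, with a median of 0.12 over all genes.

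Water and NRCM cultures changed less over the same interval. In water cultures 5 members rose and 4 fell at 96 h against 24 h, well under the 27.2% and 26.5% of all genes, with medians of -0.02 and -0.07. RSM22 had 51.2, 51.6 and 50.4 CPM at 96 h, against 28.3, 26.8 and 23.8 CPM at 24 h (0.93 ± 0.15, adjusted p = 1.15e-05). MRPL44 (0.71 ± 0.15, adjusted p = 0.000467) and MRPL17, also particular to mitochondria (0.51 ± 0.14, adjusted p = 0.00326), rose next. RSM7 had 78.2, 63.0 and 95.7 CPM at 96 h, against 150.7, 176.1 and 142.4 CPM at 24 h, and fell by 0.99 (SE 0.18, adjusted p = 7.44e-05). MRPL50 fell by 0.63 (SE 0.17, adjusted p = 0.00329) and MRP1, of the superoxide dismutase fold, by 0.47 (SE 0.16, adjusted p = 0.0141), but both turned positive without TMM scaling, and the call of RSM7 was lost. Without scaling the median of all genes was 0.71 and 50 members rose with 0 lower, beside 4570 genes higher and 602 lower in place of 1809 and 1765, so the changes given for this interval are relative to the other genes. Without 24 h replicate 2 or 96 h replicate 2 the members lower were 2, MRP1 no longer among them.

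In NRCM cultures 6 members rose and 15 fell at 96 h against 24 h, against 28.8% and 28.3% of all genes, with medians of -0.11 and -0.08. RSM22 (0.96 ± 0.15, adjusted p = 7.08e-06), MRPS16, of the bacterial S16 family (0.77 ± 0.15, adjusted p = 0.00013), and MRPL44 (0.51 ± 0.15, adjusted p = 0.00711) rose most. MRP4, the counterpart of bacterial S2, had 62.4, 65.6 and 73.3 CPM at 96 h, against 97.9, 163.9 and 144.4 CPM at 24 h, and fell by 0.97 (SE 0.20, adjusted p = 0.000273). RSM7 fell by 0.75 (SE 0.18, adjusted p = 0.00123) and MRPL50 by 0.67 (SE 0.17, adjusted p = 0.00176). Without NRCM 24 h replicate 1 there were 3 higher and 24 lower, without 24 h replicate 3 there were 8 higher and 9 lower, and without 96 h replicate 2 or 3 the members higher were 3. The calls of RSM7 and MRPL50 were lost without TMM scaling, which gave 34 higher and 1 lower, with a median of 0.52 over all genes and 3794 genes higher and 806 lower in place of 1917 and 1884.

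At 96 h the members no longer moved in 1 direction with CRCM against water. CRCM against water gave 7 members higher and 11 lower, against 19.5% of all genes higher and 21.9% lower (6652 genes), with medians of 0.02 in the large and -0.09 in the small subunit. Of the 11 lower, 8 were among the 34 large subunit genes, a share near the 21.9% of all genes. No test compared the subunits. MRPL8, of the bacterial L17 family, had 56.6, 71.5 and 65.6 CPM with CRCM, against 41.9, 39.4 and 44.5 CPM with water (log2 fold change 0.57 ± 0.12, adjusted p = 0.00278). RSM19 had 35.7, 37.6 and 43.4 CPM with CRCM, against 22.5, 22.8 and 31.1 CPM with water (0.57 ± 0.13, adjusted p = 0.00465), and RSM7 had 114.0, 124.2 and 117.6 CPM with CRCM, against 78.2, 63.0 and 95.7 CPM with water (0.57 ± 0.14, adjusted p = 0.00714). Each of these 3 genes was higher in all CRCM libraries.

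The falls were led by MRPL32, with 9.55, 7.96 and 11.3 CPM in CRCM cultures, against 18.9, 22.1 and 19.8 CPM in water cultures (log2 fold change -1.06 ± 0.15, adjusted p = 0.000351). MRPL1 (YDR116C), the counterpart of bacterial L1, had 33.1, 38.9 and 35.7 CPM with CRCM, against 52.2, 51.1 and 55.1 CPM with water (-0.58 ± 0.09, adjusted p = 0.000767). MRPS8, among the 3 largest rises at 24 h, had 16.7, 16.2 and 17.1 CPM with CRCM, against 24.3, 24.5 and 21.9 CPM with water (-0.51 ± 0.09, adjusted p = 0.00162). MRPL25 had 19.7, 20.04 and 35.7 CPM with CRCM, against 31.9, 34.2 and 32.5 CPM with water, and MRP51 had 61.2, 60.1 and 76.5 CPM with CRCM, against 72.7, 75.1 and 76.4 CPM with water. The third CRCM value of each is replicate 3. With it neither gene passed the test (-0.46 and -0.22), and without it both did (-0.72 and -0.32).

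Without CRCM replicate 3 there were 8 members higher and 15 lower. The counts were less stable than at 24 h, with 4 to 9 higher and 6 to 15 lower when 1 library was left out, the fewest higher without water replicate 1 and the fewest lower without water replicate 2. Without water replicate 1 or 3 the members lower were 7. Without TMM scaling, where the median of all genes was -0.12, there were 4 higher and 17 lower, beside 928 genes higher and 1878 lower in place of 1298 and 1460.

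NRCM against water at 96 h gave 11 members higher and 1 lower, against 12.5% and 12.1% of all genes. MRPS16 had 87.7, 95.2 and 87.3 CPM with NRCM, against 55.1, 49.9 and 60.02 CPM with water (0.71 ± 0.09, adjusted p = 0.00121). RSM7 (0.64 ± 0.14, adjusted p = 0.00941) and MRPL33 (0.54 ± 0.12, adjusted p = 0.00977) rose next, and RSM26 fell (-0.35 ± 0.09, adjusted p = 0.0166), a call lost without NRCM replicate 2 or water replicate 1 or 2. This count of members higher dropped to 4 without NRCM replicate 1 or 2 or without water replicate 1 or 2, and to 5 or 6 without CRCM replicate 2, NRCM replicate 3 or water replicate 3. Without CRCM replicate 3, which is in the fit but in neither group compared, there were 15 higher and 2 lower. Without TMM scaling it was 4 higher and 2 lower, beside 489 genes higher and 1108 lower in place of 831 and 804.

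CRCM against NRCM at 96 h gave 4 members higher and 20 lower, against 17.3% of all genes higher and 19.7% lower, with medians of -0.22 and -0.07. MRPL33 had 43.6, 38.5 and 36.2 CPM with CRCM, against 70.7, 83.1 and 66.1 CPM with NRCM (-0.92 ± 0.12, adjusted p = 0.000254). MRPL32 (-0.84 ± 0.15, adjusted p = 0.00168) and MRPL1 (-0.62 ± 0.09, adjusted p = 0.000691) fell next, and MRP4 (0.45 ± 0.11, adjusted p = 0.0106), MRPL8 (0.43 ± 0.12, adjusted p = 0.0138) and MRPL50 (0.33 ± 0.10, adjusted p = 0.0244) rose. The members lower numbered 9 without NRCM replicate 1, 12 without NRCM replicate 3 and 27, with 4 higher, without CRCM replicate 3. The members higher numbered 1 without CRCM replicate 2 or NRCM replicate 3, where the calls of MRPL8 (0.35) and MRPL50 (0.30 and 0.28) were lost, and that of MRPL50 was also lost without CRCM replicate 1 or NRCM replicate 1.

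The change of the CRCM effect itself was tested as the effect against water at 96 h minus that at 24 h. It was below 0 in 48 members, 29 of 34 in the large and 19 of 26 in the small subunit, and above 0 in 0, against 15.5% of all genes higher and 14.4% lower. The medians were -0.89 and -0.76. edgeR gave 47 and DESeq2 45 members lower, with 0 higher in either and 0 higher at an unadjusted p under 0.05. MRPS8 changed most (-1.95 ± 0.21, adjusted p = 3.76e-07), then MRPL49 (-1.57 ± 0.27, adjusted p = 0.000163) and MRPL35 (-1.56 ± 0.23, adjusted p = 2.71e-05). RSM7 was the only member with a value above 0 (0.24 ± 0.26, adjusted p = 0.519), having a CRCM effect against water of 0.34 at 24 h and 0.57 at 96 h. Without CRCM 96 h replicate 3 there were 50 members lower. Without TMM scaling there were 57, with a median of -0.55 over all genes and 401 genes higher and 3300 lower in place of 1033 and 961.

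**Figure D4:**
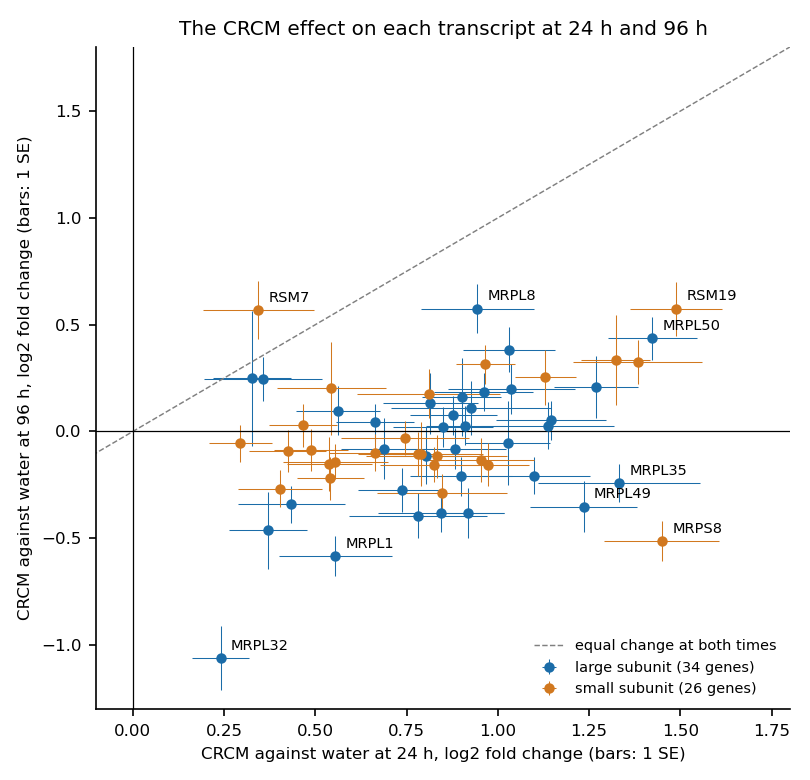
Log2 fold change of each member with CRCM against water at 24 h (horizontal) and at 96 h (vertical), with bars of 1 SE and a dashed line where the values are equal. All members lie right of 0 at 24 h and scatter on both sides of 0 at 96 h, MRPL32 lying lowest at -1.06.

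Features that played no part in choosing the members were then set beside the 24 h change. By the uniform names of ribosomal protein families, 36 members have bacterial counterparts, 23 are particular to mitochondria and RSM22 is neither. Of the 36, 34 rose with CRCM against water at 24 h, with a median of 0.79, and of the 23 all rose, with a median of 0.90. In the small subunit the medians were 0.54 over 15 genes with bacterial counterparts and 0.83 over 10 without, and in the large subunit 0.81 over 21 and 0.91 over 13. Across the 60 members, which share libraries and are not independent, Spearman's rho between the change and coding length was -0.32, against -0.08 over 5933 genes, and with the mean level per kb it was 0.22, against -0.05. In other comparisons the correlation with length was -0.15 for CRCM against NRCM at 24 h, against 0.01 over all genes tested. It was -0.56 for NRCM against water at 96 h, against -0.26 over all genes. In log phase, where no member passed the test, it was -0.49 for CRCM against water and -0.45 for NRCM against water. Over all genes these log-phase values were -0.32 and -0.30, so a trend with length was not limited to the members.

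The Puf3 letters go with the members almost without exception, so members with and without them could not be compared. The 59 members with the letters had a median log2 fold change of 0.84 and RSM22 had 0.78 ± 0.15 at 24 h, CRCM against water. Other nuclear genes with the letters had a median of 0.21 (782 genes), against -0.02 in those without (5069 genes). Here and above, the other nuclear genes are all that are not members. They include the other mitochondrial ribosome proteins and the related lists, whose genes mostly hold the letters and several of which also rose. The 14 tRNA synthetases all hold the letters, yet some of them rose and some fell, as given above. For CRCM cultures at 96 h against 24 h the medians were -0.85 in the 59 members, -0.20 in 783 other genes with the letters and 0.02 in 5122 without. At 96 h, CRCM against water, they were -0.06, -0.01 and -0.01. RSM22 differed from most members over time, since in water cultures it fell by 0.94 on the log2 scale at 24 h against log phase (adjusted p = 3.05e-06) and rose at 96 h as given above. Whether Puf3 acted on any of these transcripts was not tested.

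**Figure D5:**
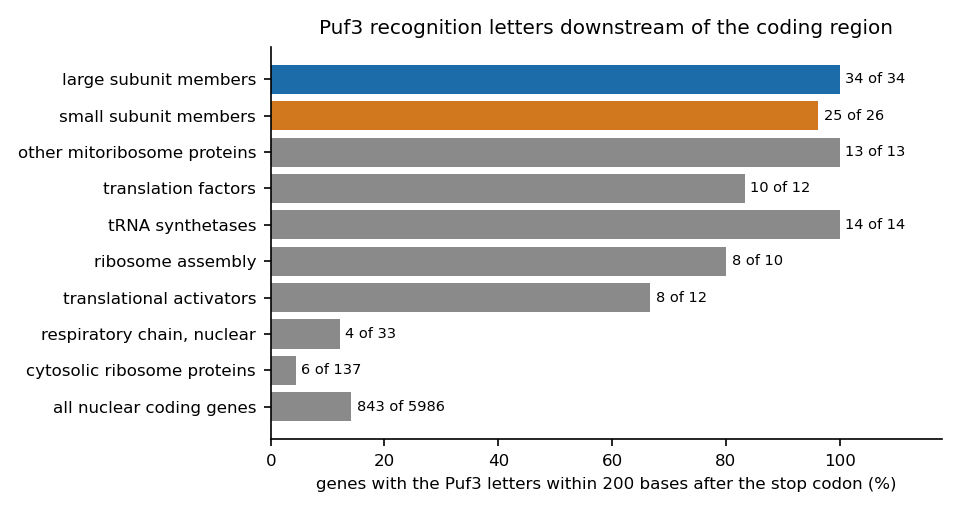
Share of genes with the Puf3 letters in the 200 bases after the stop codon, for each subunit, the lists of related genes and all nuclear coding genes, with the number of genes beside each bar. The subunits stand at 34 of 34 and 25 of 26, the respiratory chain at 4 of 33 and all nuclear genes at 843 of 5986.

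The same search over related genes found the letters in all 13 other mitochondrial ribosome proteins, all 14 tRNA synthetases, 10 of 12 translation factors, 8 of 10 assembly factors and 8 of 12 translational activators, but in 4 of 33 respiratory chain subunits (12.1%) and 6 of 137 cytosolic ribosomal proteins (4.4%). In promoter windows of 250 bases before to 50 after the start of the coding region, searched on both strands, the members were ordinary. The rRNA processing element core AAATTTTT was found in 4 of 60 (6.7%, against 14.2% of all genes), the PAC core GATGAG in 11 (18.3%, against 20.4%) and CCAAT, the letters bound by the Hap complex, in 25 (41.7%, against 43.3%). CCAAT was found in 29 of 33 respiratory chain genes (87.9%).

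PUF3 (YLL013C) itself had 188.2, 199.8 and 198.3 CPM in CRCM cultures at 24 h, against 93.5, 141.0 and 146.8 CPM in NRCM cultures and 92.8, 130.2 and 73.4 CPM in water cultures. All CRCM values were above all others at that time, and the log2 fold change was 0.99 ± 0.21 against water (adjusted p = 0.00371) and 0.62 ± 0.21 against NRCM (adjusted p = 0.0393). At 96 h it had 140.3, 153.8 and 97.8 CPM with CRCM, 110.5, 104.98 and 116.2 CPM with NRCM, and 170.5, 132.1 and 155.5 CPM with water, and it passed the test in none of the 3 comparisons.

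VAR1 (Q0140), the 1 ribosomal protein made inside the organelle, ran the other way. It had 0.64, 1.27 and 0.51 CPM in CRCM cultures at 24 h, against 6.11, 1.28 and 1.41 CPM in NRCM cultures and 37.7, 16.1 and 13.3 CPM in water cultures. All 8 mitochondrial genome transcripts were lower with CRCM than with water at 24 h, with a median log2 fold change of -2.95, and all 8 were lower with NRCM too (-2.57). Libraries were made from poly(A)-selected RNA, and yeast mitochondrial mRNAs lack long poly(A) tails. In log phase VAR1 had 0.00, 0.77 and 0.15 CPM with CRCM, 0.29, 0.00 and 4.36 CPM with NRCM, and 22.1, 14.6 and 0.65 CPM with water, so replicates of 1 group differed widely. How selection bears on these values was not tested.

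3 members overlap another annotated gene, MRPL19 with YNL184C, MRPL51 with YPR099C and MRP4 with YHL005C. The counting step and its strand setting are not given in the sources used here, so reads in the shared stretches may be split or dropped. The log2 fold changes of these members at 24 h, CRCM against water, were 0.93 ± 0.22, 0.96 ± 0.14 and 0.81 ± 0.20, inside the range of the others.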

How the data were processed

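RNA from 27 BY4741 cultures (9 groups of 3 biological replicates) was poly(A) selected and sequenced. The authors mapped reads with Bowtie2 to sacCer3 and tested with DESeq2, and the submitters' processing notes also name bedtools and edgeR. Versions, the annotation and the strand setting of the counting step are not given in the sources used here. The deposited values are a normalized signal, the share of each library's assigned reads that fell in a gene, so each column sums to 1. They were taken as CPM. Low values were whole multiples of 1 read, which gave each library's total. All values tested, 3.1% of the table and at most 20 reads each, were whole within 0.1. The totals were themselves taken from low values, so this is not an independent check of them. The fewest values tested in a library were 22, in water 96 h replicate 2.

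limma 3.58.1 (R 4.3.3) was fitted with a variance trend to log2(CPM + 1), with TMM factors from edgeR 4.0.16, for genes that reached 1 CPM in 3 or more libraries. Fold changes are on this scale, which understates changes of low genes. Comparisons within a time used its 9 libraries, and comparisons over time used all 27. P-values were adjusted over all genes tested (Benjamini-Hochberg, threshold 0.05). The alternatives were no TMM scaling, a pseudocount of 5 CPM, no filter, the replicate number as a block, edgeR's quasi-likelihood test and DESeq2 1.42.0 on recovered reads, other sets of libraries in the fit, and leaving out each replicate. edgeR on recovered reads called 1790 genes higher and 1639 lower over all genes for CRCM against water at 24 h. Fits were tested on simulated data.

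The replicate number was checked by the correlation of deviations from group means. It exceeded 0.1 in all 3 pairs for CRCM with NRCM in log phase (0.469 to 0.74) and at 24 h (0.219 to 0.335), and in no other comparison. The labels give no shared batch.

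The genes named were the 3 largest changes in each direction that passed the test without overlap between libraries, in each comparison and in the change of the CRCM effect, the 3 highest and 3 lowest by level, and MRPL25, MRPL32, MRP51, VAR1 and PUF3. MRPL4, MRPL44, MRPL11 and the other members that missed a threshold, those after the third in a comparison, and the overlapping genes were named after their values were seen. Members and lists were chosen with earlier results of these data known. Of 6692 gene identifiers, 6008 matched RefSeq, from which gene positions and sequences were read. Protein family classes were assigned by name.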

Additional observations from a re-analysis of the deposited data

Results flagged for a closer look

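The CRCM effect against water differed between the times by a test of the difference itself in 48 members, each lower at 96 h than at 24 h (limma, adjusted p under 0.05). The 3 largest were MRPS8 (-1.95 on the log2 scale), MRPL49 (-1.57) and MRPL35 (-1.56).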

How the results depend on the processing

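At 24 h the counts of members higher with CRCM, against water and against NRCM, stayed within 1.5 times under every alternative run, as did the fall in CRCM cultures at 96 h and the change of the CRCM effect. Smaller counts moved. Without TMM scaling, members higher became 8 for NRCM against water at 24 h, 4 for CRCM and 4 for NRCM against water at 96 h, 3 in water cultures at 24 h against log phase, and 50 in water and 34 in NRCM cultures at 96 h against 24 h. Members lower became 17 and 2 for CRCM and NRCM against water at 96 h, 0 in CRCM cultures at 24 h against log phase, and 0 in water and 1 in NRCM cultures at 96 h against 24 h. In water cultures at 96 h against 24 h MRP1 turned to 0.20 and MRPL50 to 0.036; the cause was not tested.

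With a replicate block, NRCM against water gave 2 members lower at 24 h and 6 higher at 96 h, CRCM cultures at 24 h against log phase gave 2 lower, and the pairing moved no other count of members by over 1.5 times. DESeq2 gave 10 higher and 2 lower for NRCM against water at 24 h. With only the 6 libraries compared, NRCM against water gave 1 higher and 0 lower at 24 h and 2 lower at 96 h, CRCM against water at 96 h 7 lower, and CRCM against NRCM at 96 h 2 higher and 12 lower. With all 27 libraries, NRCM against water gave 2 higher and 0 lower at 24 h and 4 higher and 0 lower at 96 h, CRCM against water at 96 h 4 lower, and CRCM against NRCM at 96 h 1 higher and 8 lower.

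Leaving out 1 replicate gave 1 to 44 higher and 0 to 2 lower for NRCM against water at 24 h. At 96 h it gave 4 to 9 higher and 6 to 15 lower for CRCM against water, 4 to 15 higher and 0 to 2 lower for NRCM against water, and 1 to 4 higher and 9 to 27 lower for CRCM against NRCM. Over time it gave 3 to 10 higher in water cultures at 24 h against log phase, 2 to 6 lower in water cultures at 96 h against 24 h, 0 to 1 lower in CRCM and 3 to 8 lower in NRCM cultures at 24 h against log phase, and 3 to 8 higher and 9 to 24 lower in NRCM cultures at 96 h against 24 h. Of the values of named genes and medians, 2346 kept their direction and side of the threshold, 51 fell short of it, 4 came to pass it and 14 medians moved.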
